A study of Mus musculus with 45 samples.

Results

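Laminins are large secreted glycoproteins of the basement membrane, each built from 1 alpha, 1 beta and 1 gamma chain that are encoded by separate genes. The 9 chain genes Lama1, Lama2, Lama3, Lama4, Lama5, Lamb1, Lamb2, Lamb3 and Lamc1 were taken by symbol from the 52636 genes listed in both expression tables of the series, and were followed across stage, gut region, Lgr5 genotype, Rspondin ligand and ligand dose. The series measured RNA in 15 libraries of sorted mouse small intestinal cells and in 30 libraries of fetal intestinal organoids.

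The sorted cells were eGFP-positive cells of Lgr5-expressing epithelium. At E16.5, 2 heterozygous (HE) pools of 7 and 8 embryos and 2 knockout (KO) pools of 2 and 6 embryos came from 2 litters of the Lgr5-DTReGFP line, in which the eGFP knock-in disrupts Lgr5, so that KO embryos are homozygous for a null allele. At E18.5, 2 single HE embryos of that line were used. Duodenum and ileum were taken from the same 2 HE adult mice of the Lgr5-DTReGFP line, aged 2 months. In a separate set of adult ileum, eGFP-positive and RFP-positive cells were collected 48 h after 2 mg of tamoxifen. They came from 2 Lgr5-Cre/+ mice (HE) and from 3 Lgr5-Cre/flox mice (cKO), all aged 2 months. Every HE control therefore carried 1 inactive Lgr5 allele, and the Cre acts in Lgr5-expressing cells. Organoids came from E17.5 Lgr5-DTReGFP small intestine and were used at passage 4. There were 3 WT cultures (WT10, WT5, WT30) and 2 KO cultures (KO7, KO2), each from 1 embryo, and each was grown with mouse Rspo1, Rspo2 or Rspo3 at 100 or 5 ng/ml, with 1 library per culture and condition. Organoids hold epithelium without the surrounding mesenchyme.

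Laminin chains are named by composition, so that laminin-511 joins the products of Lama5, Lamb1 and Lamc1, and laminin-521 those of Lama5, Lamb2 and Lamc1. Lama5 protein lies in the epithelial basement membrane of the gut, whereas Lama4 is known mainly from vessels and mesenchyme, Lama2 from muscle and from crypt mesenchyme, and Lama1 from embryonic basement membranes. Rspondins bind Lgr receptors and raise Wnt/β-catenin signaling in intestinal stem cells.

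The values are CPM, the reads of a gene scaled to a common library total, and depend on transcript length. For comparison between chains they were scaled to a gene's summed exon length (CPM per kb). On the GRCm38 build, the genes of 4 alpha chains lie on chromosome 17 (Lama1, 67697259 to 67822647), chromosome 10 (Lama2, 26980036 to 27619758, and Lama4, 38965515 to 39110188) and chromosome 2 (Lama5, 180176373 to 180225859). The beta chain genes lie on chromosome 12 (Lamb1, 31265234 to 31329644), chromosome 9 (Lamb2, 108479736 to 108490530) and chromosome 1 (Lamb3, 193207699 to 193343878). The gamma chain gene Lamc1 is also on chromosome 1 (153218922 to 153332786).

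Lama5 and Lamb2 were each called higher in 5 of the 6 Rspondin dose comparisons in the organoids, and the bases before their starts are shown because these starts differ in composition. The sequences are from RefSeq on GRCm38.p6, which gave a window from 250 bases before to 50 bases after the start for 5 of the 9 genes (Lama2, Lama5, Lamb1, Lamb2, Lamb3). Each stretch is written 5′ to 3′ on the strand of its gene and stops before the transcript begins. Capitals mark matches, on either strand, to GGGCGG, the core of an Sp1 site, or to CTTTGNT. The latter is a looser form of the TCF/LEF core, in which N is any base rather than A or T.
Lama5, chr2:180225860-180226109, minus strand: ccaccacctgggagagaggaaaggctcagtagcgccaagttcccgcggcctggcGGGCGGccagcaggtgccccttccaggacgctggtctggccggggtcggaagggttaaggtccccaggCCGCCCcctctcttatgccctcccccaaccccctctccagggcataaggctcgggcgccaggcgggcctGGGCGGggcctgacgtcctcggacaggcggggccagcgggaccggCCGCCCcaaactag
Lamb2, chr9:108479612-108479735, plus strand: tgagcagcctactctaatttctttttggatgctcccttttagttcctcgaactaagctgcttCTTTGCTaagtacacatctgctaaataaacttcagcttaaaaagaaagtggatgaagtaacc

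The whole Lama5 window held 4 matches to GGGCGG, none to CTTTGNT and 24 CpG dinucleotides. The whole Lamb2 window held 2 matches to CTTTGNT, of which the second lies at the end of the printed stretch and beyond it, none to GGGCGG, and 4 CpG dinucleotides. Among 32851 promoter windows of the same length, 35.7% held GGGCGG, 5.49% held at least as many copies as Lama5, and 18.6% held CTTTGNT. The median window had 7 CpG dinucleotides, and 20.0% had at least as many as Lama5. A match describes letters and does not show that a factor binds there.

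The depth of the libraries set what could be seen. Sorted-cell libraries held about 1.28 to 9.98 M reads and organoid libraries 18.1 to 33.1 M reads, and the E16.5 HE pools were the shallowest. In sorted cells 1 read was worth up to 0.784 CPM. In organoids 1 read was worth 0.0302 to 0.0552 CPM. Lgr5 itself stood at 104.25 and 125.1 CPM in E16.5 HE cells, against 64.75 and 51.65 CPM in KO cells. The 10 epithelial markers were all detected in all libraries, with a summed level of 3152 CPM or more. Non-epithelial RNA was also present in the sorted cells, and the values of its marker lists are given beside the results they move with.

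The first question was which laminin chains the Lgr5-positive cells of the small intestine carry as development proceeds. From E16.5 to E18.5, 6 of the 9 genes fell in HE cells and none rose. A gene was called changed in sorted cells at an adjusted p under 0.1 and a fold change over 1.5 (limma on log2(CPM + 1), Benjamini-Hochberg over all tested genes). By this rule 19.4% of all 18408 tested genes were called lower. The members' median log2 fold change was -1.23, against 0.23 for all genes.

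**Figure D1:**
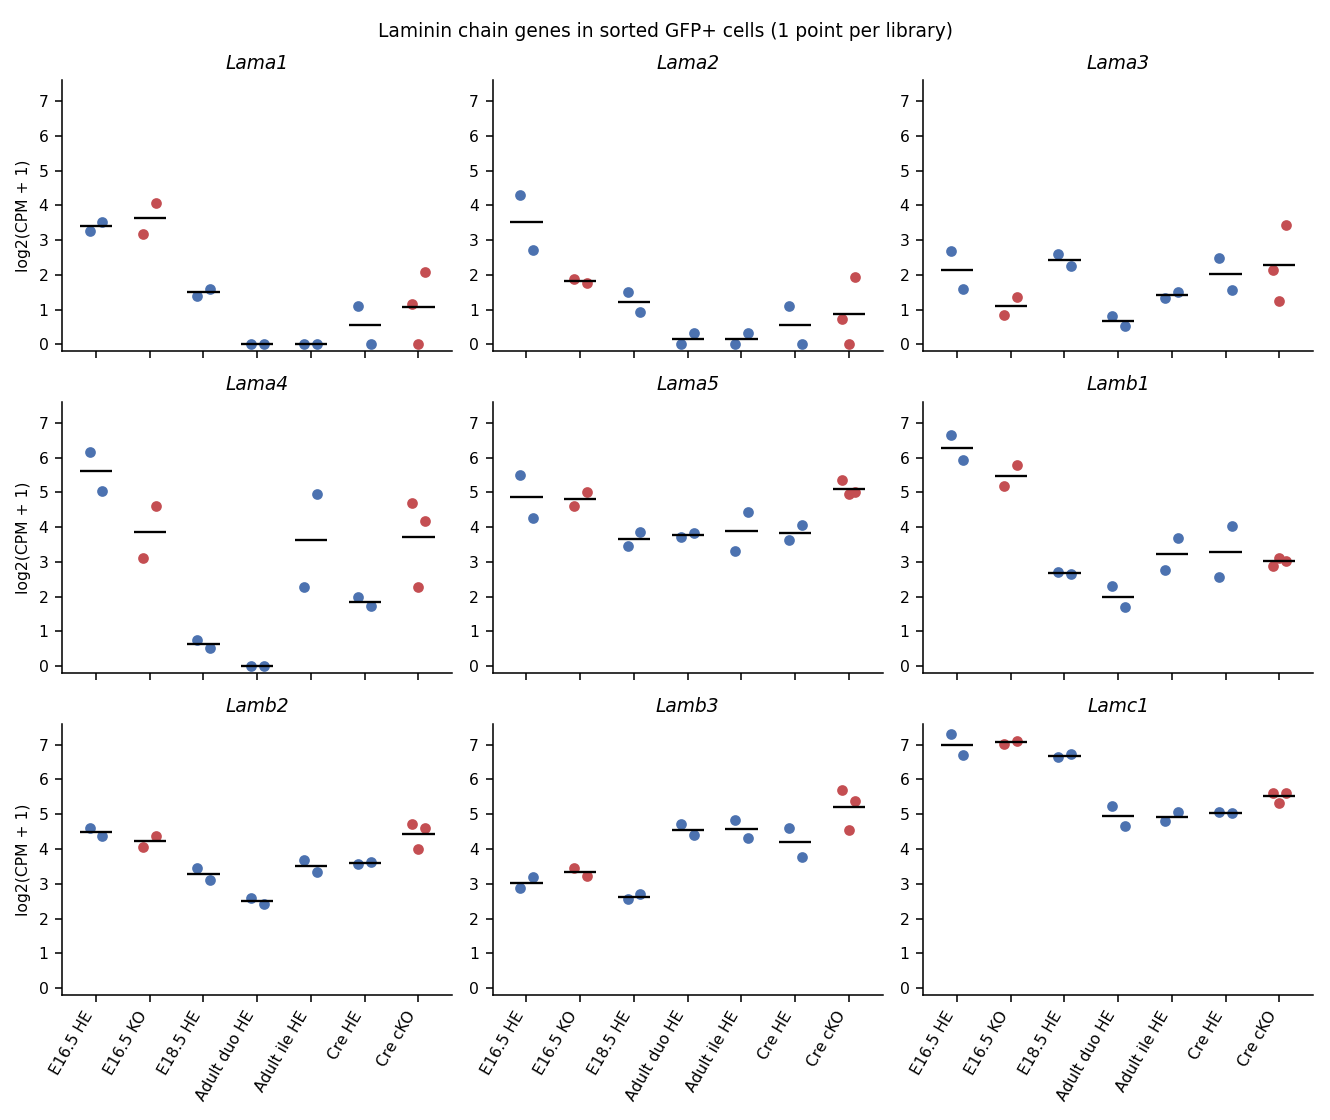
Level of the 9 laminin chain genes in sorted cells, 1 panel per gene, as log2(CPM + 1) on the vertical axis against the 7 groups on the horizontal axis. Points are libraries (blue HE, red KO or cKO) and black lines are the means of the log values of a group. Lama4 and Lamb1 drop between E16.5 and E18.5, Lamc1 drops between E18.5 and the adult, and Lamb3 is higher in the adult groups than at E18.5.

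Lama4 was measured at 71.35 and 31.8 CPM in the 2 pools of HE embryos at E16.5 and at 0.7 and 0.45 CPM in the 2 embryos at E18.5. Both E16.5 pools lay far above both embryos, which held only 3 and 2 reads of the gene. From the summed reads of each group the ratio was 84.2, with an exact 95% interval of 35.3 to 263.0 that covers counting error only. The log2 fold change was -4.96 ± 0.43 (SE) with an adjusted p of 0.000574.

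Lamb1, the beta chain of laminin-411 and laminin-511, stood at 98.8 and 60.05 CPM at E16.5 and at 5.55 and 5.3 CPM at E18.5. The groups did not overlap, and the ratio of means was 14.6. Its log2 fold change was -3.60 ± 0.27 (adjusted p = 0.000399, limma).

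The other 4 called genes fell less. Lama2 went from 18.85 and 5.55 CPM to 1.85 and 0.9 CPM (log2 fold change -2.29 ± 0.57, adjusted p = 0.0185). Lama1 went from 8.65 and 10.6 CPM to 1.65 and 2 CPM (-1.91 ± 0.33, adjusted p = 0.00512). In both genes the lower E16.5 pool lay above the higher embryo, and both are alpha chains of embryonic or mesenchymal basement membranes. Lama5 went from 43.9 and 18.2 CPM to 9.95 and 13.4 CPM (-1.23 ± 0.41, adjusted p = 0.0481), and Lamb2 from 23.55 and 19.7 CPM to 9.95 and 7.7 CPM (-1.21 ± 0.25, adjusted p = 0.00965). These falls of 2.66 and 2.45 in the ratio of means were the smallest of those called.

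Lamc1, the gamma chain shared by most laminins, did not pass the test. At E18.5 it had the highest level per kb of all 9 genes, 12.3 ± 0.513 CPM per kb (SD, n = 2). It was measured at 156 and 102.4 CPM at E16.5 and at 98.5 and 104.5 CPM at E18.5 (log2 fold change -0.31, adjusted p = 0.232). Lama3 (0.27) and Lamb3 (-0.40) did not pass either.

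RNA of other cell types moved with this comparison. The summed level of 12 mesenchymal markers that hold no matrix protein was 184.5 to 357.6 CPM in the E16.5 HE pools and 23.1 to 26.3 CPM in the E18.5 embryos, and 8 of the 9 tested markers of that list fell. Of 6 smooth muscle markers 5 fell, with sums of 370.1 to 391 CPM against 25.15 to 58 CPM, and of 7 tested endothelial markers 5 fell, with sums of 30.5 to 75.45 CPM against 5.7 to 10.3 CPM. Of 6 tested immune markers 5 fell, with sums of 52.7 to 111.5 CPM against 14.4 to 18.6 CPM. Their part in the laminin falls was not tested. In bulk RNA, fewer cells of a type and less RNA per cell cannot be told apart. The stages also differed in that pools were compared with single embryos. When every gene with a nonzero value was tested, the calls of Lama5 (adjusted p = 0.1805) and Lama2 (adjusted p = 0.101) were lost.

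From E18.5 to the adult, the gene of the gamma chain fell and that of the beta 3 chain rose. Among the 8 genes tested (Lama2 did not reach 1 CPM in 2 libraries, the minimum for testing), 1 was called higher and 3 lower, beside 9.36% of all 19554 tested genes called higher and 9.65% called lower. Lamb3 stood at 4.85 and 5.5 CPM in the embryos and at 25.15 and 20 CPM in adult duodenum and 27.75 and 18.8 CPM in adult ileum. All 4 adult libraries lay above both embryos, a ratio of means of 4.43, and the log2 fold change was 1.94 ± 0.21 (adjusted p = 0.00123, limma).

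Lamc1 went from 98.5 and 104.5 CPM to 36.95 and 24.25 CPM in duodenum and 26.8 and 32.3 CPM in ileum. Every adult library lay below both embryos (ratio of means 3.38 lower, log2 fold change -1.74 ± 0.18, adjusted p = 0.0011). Lama1 was at 0 CPM in all 4 adult libraries (-1.50 ± 0.22, adjusted p = 0.0046). Against the level that 3 reads would give in the shallowest of them, its mean of 1.83 CPM at E18.5 was at least 2.5-fold higher. Lama3 went from 5.1 and 3.75 CPM to between 0.45 and 1.85 CPM (-1.38 ± 0.34, adjusted p = 0.0307), a ratio of means of 3.89 lower.

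The call for Lama3 did not hold without E18.5 embryo 1 (adjusted p = 0.258) or without E18.5 embryo 2 (adjusted p = 0.168). Without either embryo Lama1 no longer passed the filter, so that 2 genes, Lamb3 and Lamc1, were called. Lama4 had a log2 difference of 1.16 ± 1.30 (adjusted p = 0.594) when both regions formed 1 group. Set against E18.5 with ileum alone, the difference was 2.97 (adjusted p = 0.0279). The 4 adult libraries came from 2 mice, and with 1 mean per mouse Lama4 was called as well (2.13, adjusted p = 0.0375), which made 5 genes. Over the same step 4 of 5 tested mesenchymal markers and 4 of 5 tested smooth muscle markers fell, while 4 of 4 Paneth markers rose. The sum of 8 immune markers was 14.4 to 18.6 CPM in the embryos and 1492 to 3145 CPM in the adult libraries, with 2 of 4 tested markers higher and 1 lower. Most of the adult sum was Lyz2 (1473.55 to 3111.65 CPM), a close paralog of the Paneth marker Lyz1 that may share reads with it, and without Lyz2, a split chosen after seeing the values, the sums were 9.8 to 12.35 CPM and 18.6 to 79.6 CPM. Their part in the adult values was not tested.

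The next comparison asked whether laminin chains differ between the 2 ends of the adult small intestine. Of 7 genes tested, 2 were called higher in ileum than in duodenum, where 2.24% of all 18608 tested genes were. Lama4 was at 0 CPM in the duodenum of both mice, and at 3.9 CPM in the ileum of mouse 71 and 30 CPM in the ileum of mouse 77. Set against the level of 3 reads in the duodenal library of the same mouse, ileum was at least 7.29-fold higher in mouse 71 and at least 44.6-fold higher in mouse 77. The fitted log2 fold change was 3.62 ± 0.76 (adjusted p = 0.0466).

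Lamb2, the beta chain of laminin-521, stood at 5 and 4.3 CPM in duodenum and at 11.95 and 9.2 CPM in ileum (log2 fold change 1.03 ± 0.27, adjusted p = 0.0967). Both ileal values lay above both duodenal values, a ratio of means of 2.27. Lamb1 was at 3.95 and 2.25 CPM in duodenum and 5.85 and 11.95 CPM in ileum (1.23 ± 0.39, adjusted p = 0.168), and with the mouse as a block its adjusted p was 0.093, which brought the count to 3. The call of Lamb2 was lost when any 1 of the 4 libraries was left out (adjusted p of 0.116 to 0.392), and without the ileum of either mouse Lama4 fell under the filter. In these libraries the summed endothelial markers were higher in duodenum (18.95 to 33.55 CPM) than in ileum (5.2 to 7.05 CPM), with 2 of 5 tested markers called lower in ileum. The immune markers summed to 2258 and 2085 CPM in duodenum and to 1492 and 3145 CPM in ileum (mouse 71 before mouse 77), with 1 of 4 tested markers called lower in ileum, and without Lyz2 to 62.7 and 79.6 CPM against 18.6 and 33.35 CPM. Their part in the regional values was not tested.

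**Figure D2:**
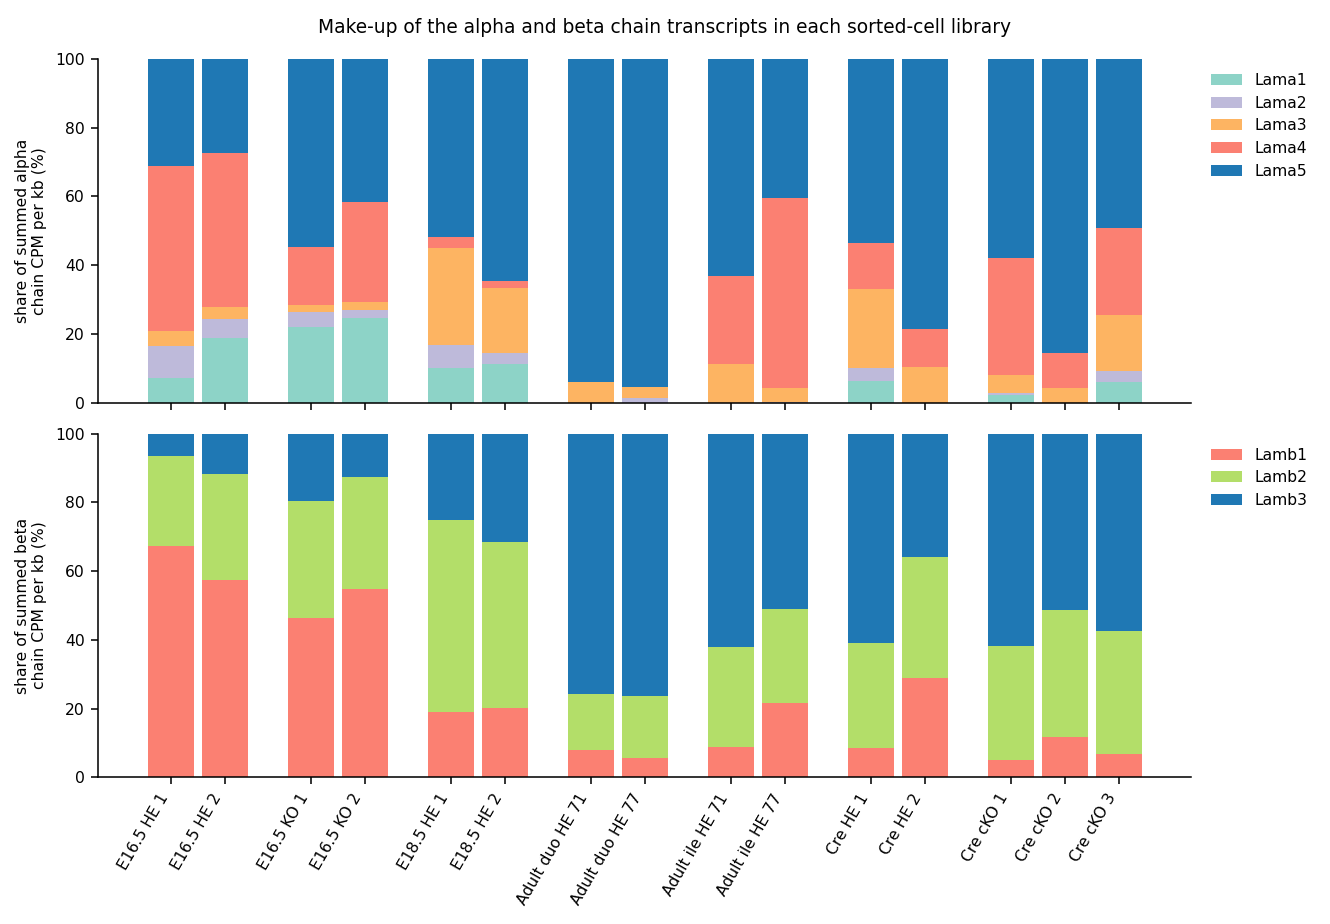
Share of each alpha chain gene (top) and each beta chain gene (bottom) in the summed CPM per kb of that chain type, in percent. Each sorted-cell library has 1 stacked bar. In E16.5 HE pools Lama4 and Lamb1 take the largest shares, and in adult duodenum Lama5 and Lamb3 do.

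Scaled per kb of exon, the make-up of the chains can be compared within a library. In E16.5 HE cells Lama4 made 46.5% ± 2.1 (SD, n = 2) of the alpha chain level and Lama5 29.3% ± 2.8. At E18.5 Lama5 made 58.1% ± 9.0, Lama3 23.6% ± 6.3 and Lama4 2.74%. In adult duodenum Lama5 made 94.6% ± 1.0, while in adult ileum it made 51.8% ± 16.0 and Lama4 40.6% ± 20.9. Lama5 thus had the largest mean share of the alpha chains at E18.5 and in adult duodenum, and Lama4 at E16.5. In adult ileum the leading gene differed between the mice, with Lama5 first in mouse 71 (0.790 against 0.323 CPM per kb for Lama4) and Lama4 first in mouse 77 (2.49 against 1.81 CPM per kb for Lama5).

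Among the beta chains the leading gene was a different one at each stage. Lamb1 made 62.5% ± 6.9 of the beta chain level in E16.5 HE cells, Lamb2 52.0% ± 5.5 at E18.5, and Lamb3 76.1% in adult duodenum and 56.6% in adult ileum. These shares describe mRNA, with no test.

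The effect of losing Lgr5 was measured first at E16.5. No laminin gene passed the test between KO and HE pools (0 of 9 in limma, beside 0.527% of all 17276 tested genes). At an unadjusted p under 0.05 with a fold over 1.5 there were 3 laminin genes, beside 1688 of all tested genes. These 3 were Lama4, Lama2 and Lamb1. Lama4 was at 71.35 CPM in the HE pool and 7.7 CPM in the KO pool of the first litter, and at 31.8 and 23.45 CPM in those of the second. Its level was lower in the KO pool of both litters (log2 difference -1.74 ± 0.47, adjusted p = 0.162).

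Lama2 was at 18.85 and 2.7 CPM in the first litter and at 5.55 and 2.4 CPM in the second, HE before KO (-1.69 ± 0.54, adjusted p = 0.229). Lamb1 was at 98.8 and 35.25 CPM in the first litter and at 60.05 and 54.4 CPM in the second (-0.80 ± 0.26, adjusted p = 0.243). In each of these genes both KO pools lay under both HE pools, with the wider gap in the first litter. How many of all genes separate in this way was not counted. Lama3, at 5.5 and 0.8 CPM and at 2.05 and 1.6 CPM, had a difference of -1.04 ± 0.55 (adjusted p = 0.426).

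HE and KO pools of a litter are related. With the litter as a block 3 laminin genes were called lower in KO: Lama4 (adjusted p = 2.2e-08), Lamb1 (0.00318) and Lama2 (0.0283). The same fit called 830 of all 17276 tested genes in either direction, in place of 91. That fit left 1 residual degree of freedom and gave every gene the spread of the overall trend, so its p-values rest on that assumption. The edgeR quasi-likelihood test on recovered reads called 1 laminin gene, Lama4 (adjusted p = 0.0875), beside 350 of all 12453 tested genes. Fits that leave out 1 pool keep only 1 library in a group, and their counts over all genes moved too. Without HE pool 2 the 3 genes Lama4, Lama2 and Lamb1 were called lower in KO, without KO pool 2 the 2 genes Lama4 and Lamb1, without HE pool 1 Lama4, and without KO pool 1 none.

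The pools also differed in markers of other cells. The mesenchymal sum was 357.6 and 184.5 CPM in the HE pools and 46.5 and 120 CPM in the KO pools, with Vim at 86.25 and 42.4 CPM against 12.3 and 30.2 CPM, and Pdgfra at 72.9 and 46.95 CPM against 11.5 and 35.35 CPM. The smooth muscle sum was 370.1 and 391 CPM in HE and 65.2 and 207.7 CPM in KO, the endothelial sum 75.45 and 30.5 CPM against 9.7 and 34.7 CPM, and the immune sum 111.5 and 52.7 CPM against 13.5 and 26.7 CPM. No mesenchymal, smooth muscle or endothelial marker passed the limma test here, and 1 of 6 tested immune markers was called lower in KO. The part of these cells in the lower Lama4, Lama2 and Lamb1 of the KO pools was not tested. Lama5 (43.9, 18.2 CPM in HE, 23.4 and 31.4 CPM in KO), Lamc1 (156 and 102.4 CPM against 129.1 and 138.2 CPM) and Lamb2 (23.55 and 19.7 CPM against 15.75 and 19.9 CPM) had overlapping groups.

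In the adult ileum, Lgr5 was removed acutely by Cre. By the deposited genotypes none of 9 genes passed the test in cKO against HE cells (limma, beside 0.0504% of all 19848 tested genes). An unadjusted p under 0.05 with a fold over 1.5 was found for 4 of the 9, beside 617 of all tested genes. Lama5 was at 11.3 and 15.6 CPM in HE and at 39.8, 30.3 and 31.05 CPM in cKO. All 3 cKO libraries lay above both HE libraries, a ratio of means of 2.51 (log2 difference 1.27 ± 0.21, unadjusted p = 0.000506, adjusted p = 0.718).

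Lamb2 likewise had no overlap, with 10.85 and 11.35 CPM in HE and 25.4, 14.9 and 23.25 CPM in cKO (0.84 ± 0.26, adjusted p = 0.864). The share of all genes without overlap was not counted. Lama4 was at 3 and 2.3 CPM in HE and at 24.75, 3.85 and 17.05 CPM in cKO (1.85 ± 0.65, adjusted p = 0.864). Lamb3 was at 23.55 and 12.65 CPM in HE and at 51.35, 22.6 and 40.5 CPM in cKO (1.02 ± 0.38, adjusted p = 0.864), so that its groups overlapped. When every gene with a nonzero value was tested, Lama5 was called (adjusted p = 0.0408), and without cKO replicate 2 Lama4 was called (2.57, adjusted p = 0.085).

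The genotypes of this set are themselves uncertain. A table published with the study assigns the other genotype to HE replicate 1 and to cKO replicate 2. With those genotypes Lama1, at 1.15, 1.25 and 3.25 CPM in cKO and at 0 CPM in both HE libraries, was called higher (1.45 ± 0.38, adjusted p = 0.0945), and 779 genes in all were called in place of 10. Lama5 then had a log2 difference of 0.15 (adjusted p = 0.88) and overlapping groups, Lama4 1.62 (adjusted p = 0.203), Lama3 1.27 (adjusted p = 0.127), Lama2 1.26 (adjusted p = 0.135) and Lamb3 1.07 (adjusted p = 0.125). The deposited HE libraries were male (Ddx3y at 47.3 and 72.95 CPM) and the deposited cKO libraries female (Ddx3y at most 0.15 CPM), so that sex and deposited genotype cannot be told apart. The mesenchymal sum was 14.3 and 9.85 CPM in the deposited HE libraries and 37.95, 13.6 and 45.05 CPM in the deposited cKO libraries. By the published genotypes it was 14.3, 37.95 and 45.05 CPM in cKO and 9.85 and 13.6 CPM in HE, without overlap. The depth also separated by the published genotypes, with 8.12 to 9.98 M reads in cKO and 3.09 and 5.71 M reads in HE, as did the number of genes above 0, at 32121 to 42154 in cKO and 22675 and 24944 in HE. The part of these differences in the Lama1 call was not tested. The whole-gene Lgr5 level is a weak check here because the deletion removes 1 exon.

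The organoid libraries gave the laminin genes of fetal epithelium in culture. Lama5 led the alpha chains there and made 98.5% ± 1.4 (SD over 30 libraries) of the alpha chain level per kb, with a range of 94.3% to 99.8%. Lama4 stayed at or under 0.85 CPM, Lama2 at or under 0.5 CPM, Lama3 at or under 1.95 CPM and Lama1 at or under 4.7 CPM, beside 31.8 CPM or more of Lama4 in the E16.5 HE pools. The organoids were prepared with another library kit and tabulated separately, so levels across the 2 tables stand side by side without a test. Lamb1, the leading beta chain of the E16.5 cells, was between 0.35 and 5.35 CPM. The endothelial gene Cdh5 was at 0 in 30 of 30 organoid libraries, and Col1a1, Pdgfra and Ptprc did not exceed 0.35 CPM, while the epithelial markers summed to 5118 CPM or more. Lama2 and Lama4 stayed under the filter, so 7 members were tested.

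The dose comparison asked which genes respond to more Rspondin. Raising the dose from 5 to 100 ng/ml raised Lama5 and Lamb2 in both genotypes with Rspo1 and with Rspo3, and in WT with Rspo2. A change in organoids was called at an adjusted p under 0.05 in 1 limma fit of all 30 libraries. Over the 6 dose comparisons, 18 of the 42 member tests were called, and all 18 were higher at 100 ng/ml.

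**Figure D3:**
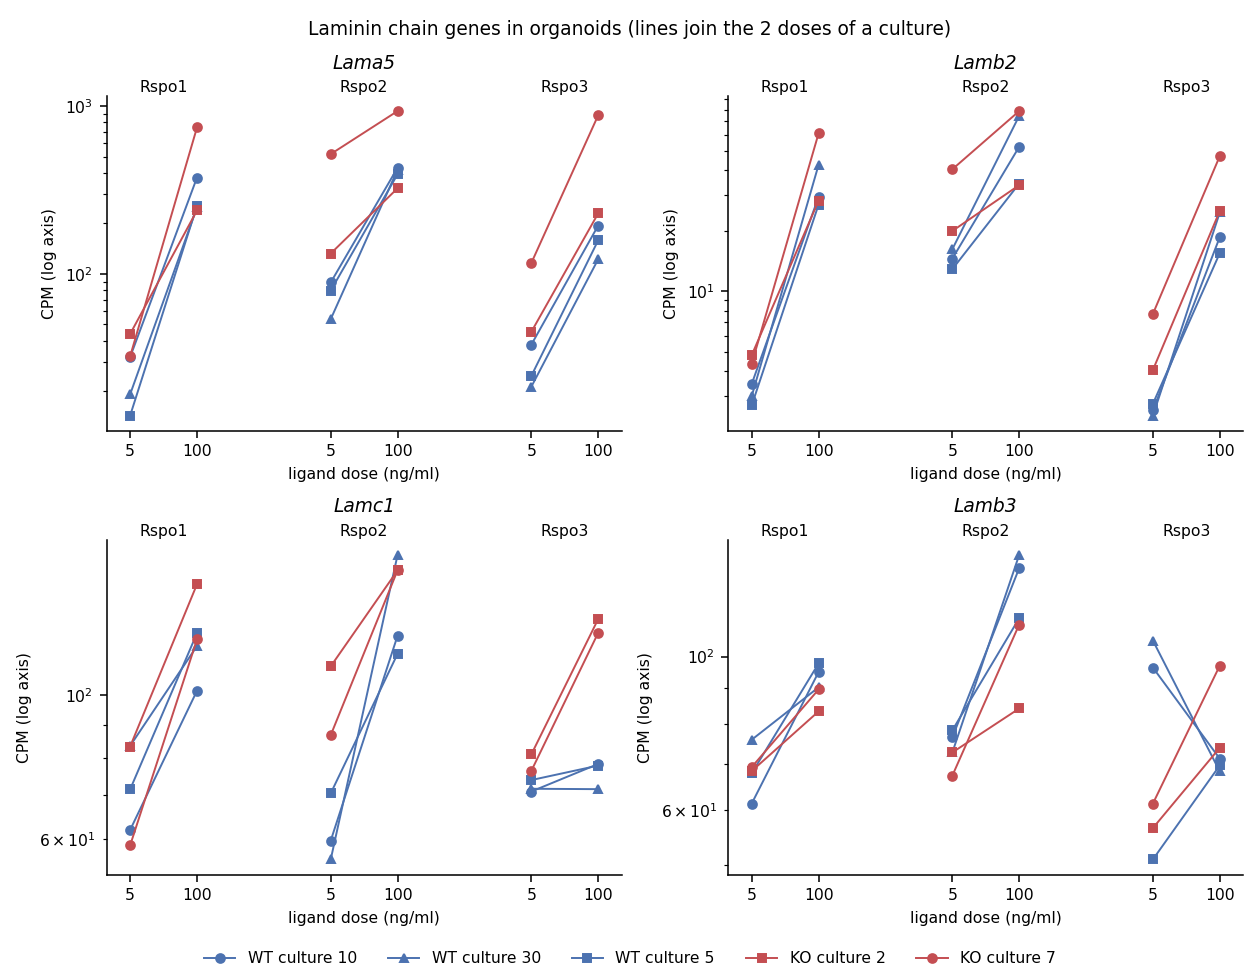
Level of Lama5, Lamb2, Lamc1 and Lamb3 in organoids, in CPM on a log axis, at 5 and 100 ng/ml of each Rspondin. Each point is a library and lines join the 2 doses of a culture (blue WT, red KO). Lama5 and Lamb2 rise in every culture with every ligand, by 1.81-fold to 23.1-fold for Lama5, whereas Lamc1 and Lamb3 stay within a range of 0.647-fold to 2.95-fold.

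Lama5 in WT cultures (WT10, WT5, WT30) went from 31.95, 14.3 and 19.15 CPM at 5 ng/ml of Rspo1 to 375.6, 254.8 and 249.9 CPM at 100 ng/ml. Within a culture the ratio was 11.8 to 17.8, and the log2 fold change of 3.74 ± 0.52 (adjusted p = 5.71e-06) ranked 9 from the highest among 19130 genes. With Rspo2 it went from 88.95, 79.6 and 53.75 CPM to 430, 393.3 and 419.2 CPM (2.497 ± 0.52, adjusted p = 0.00125), and with Rspo3 from 37.85, 24.65 and 21.25 CPM to 194.3, 158.7 and 122.4 CPM (2.48 ± 0.52, adjusted p = 0.000416). No value at 5 ng/ml reached the lowest at 100 ng/ml of the same ligand.

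In KO cultures (KO7, KO2) Lama5 went from 32.3 and 43.85 CPM to 746.9 and 239.1 CPM with Rspo1 (3.46 ± 0.64, adjusted p = 0.000542, rank 13), and from 116.2 and 45.15 CPM to 883.4 and 229.7 CPM with Rspo3 (2.62 ± 0.64, adjusted p = 0.00208). With Rspo2 it went from 518.3 and 132.35 CPM to 935.8 and 324.3 CPM, a ratio within culture of 1.81 to 2.45, which did not pass the test (1.07 ± 0.64, adjusted p = 0.822). KO7 held more Lama5 than KO2 in all conditions but Rspo1 at 5 ng/ml.

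Lamb2 moved in the same comparisons. In WT cultures it went from 3.45, 2.7 and 3 CPM to 29.45, 26.95 and 42.5 CPM with Rspo1 (3.05 ± 0.34, adjusted p = 4.61e-07, rank 27), from 14.5, 12.85 and 16.15 CPM to 52.25, 34.25 and 74.45 CPM with Rspo2 (1.76 ± 0.34, adjusted p = 0.000624), and from 2.55, 2.75 and 2.4 CPM to 18.55, 15.45 and 24.6 CPM with Rspo3 (2.502 ± 0.34, adjusted p = 2.21e-06). The 2 doses did not overlap with any ligand. In KO cultures it went from 4.35 and 4.8 CPM to 60.95 and 28.2 CPM with Rspo1 (2.93 ± 0.41, adjusted p = 6.29e-05), from 40.35 and 19.9 CPM to 78.65 and 33.65 CPM with Rspo2 (0.84, adjusted p = 0.733), and from 7.7 and 4.05 CPM to 46.95 and 25.05 CPM with Rspo3 (2.42 ± 0.41, adjusted p = 6.52e-05). Only with Rspo2 did the KO doses overlap.

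Lamc1 changed less. It was called higher at 100 ng/ml in WT with Rspo1 (61.9, 71.5 and 83.45 CPM to 101.5, 124.55 and 119 CPM, 0.67 ± 0.14, adjusted p = 0.000498) and with Rspo2 (59.6, 70.5 and 55.75 CPM to 123.45, 115.75 and 164.5 CPM, 1.10 ± 0.14, adjusted p = 1.11e-05). With Rspo3 the WT values at the 2 doses were 70.95, 73.9 and 71.65 CPM and 78.25, 77.8 and 71.55 CPM, a log2 difference of 0.07. In KO it was called with Rspo1 (58.6 and 83.25 CPM to 121.8 and 148.2 CPM, 0.93 ± 0.17, adjusted p = 0.00056) and with Rspo3 (76.35 and 80.95 CPM to 124.7 and 130.95 CPM, 0.69 ± 0.17, adjusted p = 0.00255). With the culture as a block it was also called in KO with Rspo2 (adjusted p = 0.0317).

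Lamb3 was called in WT with Rspo1 (61.35, 67.85 and 75.85 CPM to 95, 97.75 and 90.3 CPM, 0.46 ± 0.17, adjusted p = 0.0295) and with Rspo2 (76.45, 78.25 and 72.7 CPM to 134.2, 113.6 and 140.25 CPM, 0.76 ± 0.17, adjusted p = 0.00254). With Rspo3 in WT the value was -0.20. Lama1, near its detection limit, was called in WT with Rspo1 (0.1, 0 and 0.05 CPM to 1.3, 0.4 and 0.45 CPM, 0.67 ± 0.27, adjusted p = 0.039) and with Rspo2 (0.15, 0.05 and 0.15 CPM to 4.7, 0.7 and 4.05 CPM, 1.71 ± 0.27, adjusted p = 8.27e-05). On this scale the change of so low a gene is understated. Lama3 and Lamb1 were called in no dose comparison. Lamb1 had a difference of 1.013 ± 0.56 in KO with Rspo1 (adjusted p = 0.176), and it was called there (adjusted p = 0.0397) and in WT with Rspo2 (adjusted p = 0.0295) with the culture as a block, as was Lamb3 in KO with Rspo3 (adjusted p = 0.0253).

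Counted by comparison, 5 members were called higher with Rspo1 in WT, where 40.9% of all genes were, 5 with Rspo2 in WT (24.3% of all genes) and 2 with Rspo3 in WT (37.8%). In KO, 3 were called higher with Rspo1 (21.9% of all genes), 3 with Rspo3 (32.7%) and none with Rspo2 (0.115% of all genes called). With Rspo2 in KO, 2 members had an unadjusted p under 0.05, as did 1327 of all 19130 genes. Dose moved a large part of all genes, so these counts are not particular to laminins. The median of all genes also moved, by 0.28, 0.17 and 0.24 in WT with Rspo1, Rspo2 and Rspo3, by 0.19 and 0.24 in KO with Rspo1 and Rspo3, and by 0.04 in KO with Rspo2. With TMM scaling, which removes that shift, Lama5 and Lamb2 were called in the same comparisons, while in WT with Rspo1 Lamc1 (0.33, adjusted p = 0.0708), Lamb3 (0.12, adjusted p = 0.607) and Lama1 (0.58, adjusted p = 0.0539) were not, nor was Lamc1 in KO with Rspo3 (0.41, adjusted p = 0.0715). Lamb3 in WT with Rspo3 was then called lower at 100 ng/ml (-0.46, adjusted p = 0.0404), the only laminin call in that direction in a dose comparison under TMM scaling.

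**Figure D4:**
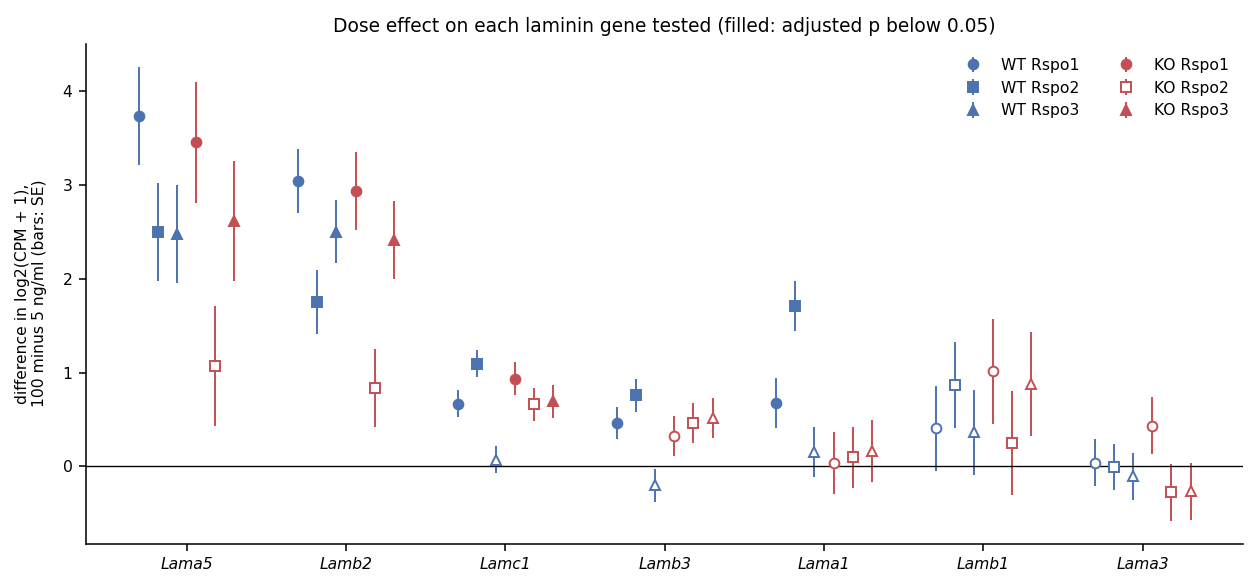
Log2 fold change of CPM + 1 from 5 to 100 ng/ml for the 7 tested laminin genes, in each of the 6 combinations of genotype and Rspondin. Points are limma estimates with bars of ± 1 SE, and filled points have an adjusted p under 0.05. Lama5 and Lamb2 are filled in 5 of the 6 combinations, and KO with Rspo2 has no filled point.

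Some calls were lost when 1 culture was left out. Without WT30, Lama5 with Rspo2 in WT had a change of 2.28 and an adjusted p of 0.0585, and Lamb3 there had an adjusted p of 0.0575. Without WT10, Lamb3 with Rspo1 was at 0.38 (adjusted p = 0.196). The call of Lama1 with Rspo1 was lost without WT30 (adjusted p = 0.085), without KO7 (0.0783) or without KO2 (0.078), and that of Lamc1 in KO with Rspo1 was lost without KO7 (0.0679).

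Stem cell markers moved with dose. Lgr5 ranged from 0.2 to 457.5 CPM over the organoid libraries, and Axin2, a Wnt target, from 2.2 to 615 CPM. All 5 stem cell markers rose in each of the 3 WT comparisons and in KO with Rspo1 and with Rspo3, and 0 of 5 were called in KO with Rspo2 in limma. Of the 4 Paneth markers 4 rose with Rspo1 in both genotypes, with Rspo2 in WT and with Rspo3 in KO, 3 with Rspo3 in WT and 0 with Rspo2 in KO. Whether Lama5 and Lamb2 rose per cell or with the share of stem cells was not tested.

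By dose, the beta chains shifted in make-up. Lamb3 made 88.0% ± 10.2 of the beta chain level per kb at 5 ng/ml and 69.6% ± 7.3 at 100 ng/ml, while Lamb2 made 11.3% ± 9.9 and 29.5% ± 6.9 (SD over the libraries of a dose, with no test). Lamb3 remained the largest of the 3 by mean at both doses.

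At matched dose, the ligands were compared with Rspo1. At 5 ng/ml, Rspo2 gave higher Lama5 and Lamb2 than Rspo1 in both genotypes. In WT, Lama5 was at 88.95, 79.6 and 53.75 CPM with Rspo2 and at 31.95, 14.3 and 19.15 CPM with Rspo1 (1.76 ± 0.52, adjusted p = 0.0191), and Lamb2 at 14.5, 12.85 and 16.15 CPM against 3.45, 2.7 and 3 CPM (1.94 ± 0.34, adjusted p = 0.000538). The 3 WT cultures lay on 1 side of the difference in both genes. In KO, the log2 differences were 2.77 ± 0.64 for Lama5 (adjusted p = 0.00584) and 2.40 ± 0.41 for Lamb2 (adjusted p = 0.00109). Beside these 2 members called higher in each genotype, 16.4% of all genes were called higher in WT and 13.6% in KO. The call of Lama5 in WT was lost when any 1 WT culture was left out (adjusted p of 0.0902 to 0.211), and that in KO was lost without KO7 (1.57, adjusted p = 0.0916). In the same comparisons 3 of 5 stem cell markers and 0 of 4 Paneth markers were called higher with Rspo2 in WT, and 4 of 5 and 4 of 4 in KO, and their part was not tested.

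At 100 ng/ml no laminin gene differed between Rspo2 and Rspo1 past the threshold, in WT (0.204% of all genes called) or in KO (0.0105%). An unadjusted p under 0.05 was reached by 2 members in WT and 0 in KO, beside 1241 and 247 of all 19130 genes. Lama1 in WT was at 4.7, 0.7 and 4.05 CPM with Rspo2 and at 1.3, 0.4 and 0.45 CPM with Rspo1 (1.13 ± 0.27, adjusted p = 0.095), and it was called with the culture as a block (adjusted p = 0.013) and without WT5 (adjusted p = 0.000497). Rspo3 differed from Rspo1 in no member in limma. That held at 100 ng/ml in WT (0.00523% of all genes called) and in KO (0%), and at 5 ng/ml in WT (16.4%) and in KO (16.2%). At an unadjusted p under 0.05 the members numbered 4, 0, 0 and 1 of 7, in this order. Of all 19130 genes, 4271, 713, 5817 and 5401 met that limit. With the culture as a block, Lamc1 (-0.59, adjusted p = 0.00883) and Lamb2 (-0.72, adjusted p = 0.0411) were called between Rspo3 and Rspo1 in WT at 100 ng/ml, as were Lamc1 in KO between Rspo2 and Rspo1 at 5 ng/ml (adjusted p = 0.0159) and Lama3 in KO between Rspo3 and Rspo1 at 5 ng/ml (adjusted p = 0.0424).

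The Lgr5 genotype was then compared at each ligand and dose, with 3 WT against 2 KO cultures. Of 42 member tests 3 were called. Lama1 was lower in KO with Rspo2 at 100 ng/ml, at 0.2 and 0.1 CPM against 4.7, 0.7 and 4.05 CPM in WT (-1.67 ± 0.30, adjusted p = 0.00608, 1 member beside 0.434% of all genes called lower). Lamc1 was higher in KO with Rspo2 at 5 ng/ml, at 86.7 and 110.7 CPM against 59.6, 70.5 and 55.75 CPM (0.66 ± 0.16, adjusted p = 0.0221, 1 member beside 3.18% called higher), and with Rspo3 at 100 ng/ml, at 124.7 and 130.95 CPM against 78.25, 77.8 and 71.55 CPM (0.75 ± 0.16, adjusted p = 0.0254, 1 member beside 0.711% called higher). In these 3 the genotypes did not overlap, and the share of all genes without overlap was not counted. With Rspo2 at 5 ng/ml, 3 of 5 stem cell markers and 2 of 4 Paneth markers were also called higher in KO, with Rspo3 at 100 ng/ml 0 and 1, and with Rspo2 at 100 ng/ml none, and their part was not tested.

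No member was called with Rspo1 at 100 ng/ml (0.214% of all genes), with Rspo1 at 5 ng/ml (0.125%) or with Rspo3 at 5 ng/ml (0.193%). At an unadjusted p under 0.05 there were 1, 0 and 3 members, beside 1688, 1599 and 1033 of all 19130 genes. Lama5 had log2 differences of 1.84 ± 0.59 with Rspo2 at 5 ng/ml (adjusted p = 0.0696, and 0.031 with the culture as a block), 1.53 ± 0.59 with Rspo3 at 100 ng/ml (adjusted p = 0.301) and 1.39 ± 0.59 with Rspo3 at 5 ng/ml (adjusted p = 0.816). These differences came mainly with KO7: without KO2 they were 2.82, 2.497 and 2.06, and without KO7 they were 0.86, 0.56 and 0.72. Over all 42 tests, none was called without WT10 or without WT30. The calls over all genes fell too in these 2 fits, to 462 and 322 in place of 1365. With TMM scaling, Lamc1 with Rspo2 at 5 ng/ml was at 0.55 (adjusted p = 0.0606). The WT cultures were female and the KO cultures male (Ddx3y at most 0.45 CPM in WT and at least 55 CPM in KO), so sex and genotype cannot be told apart in the organoids.

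Whether dose acted differently in the 2 genotypes was tested as an interaction. No member was called with Rspo1 (0% of all genes), Rspo2 (0.439%) or Rspo3 (0%) in limma. An unadjusted p under 0.05 was found for 0, 1 and 2 members, beside 516, 2438 and 430 of all 19130 genes. For Rspo2 the dose effect in KO minus that in WT was -1.62 ± 0.42 for Lama1 (adjusted p = 0.0942, and 0.016 with the culture as a block) and -1.43 ± 0.83 for Lama5 (adjusted p = 0.489). The smaller Rspo2 response of Lama5 in KO cultures was therefore not shown to differ from that in WT cultures.

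Over the 12 organoid groups together, Lama5 was called as variable (1 of 7 members, beside 0.659% of all genes). The call required an adjusted p under 0.001 in the limma F test and a 16-fold range of group means, taken on log2(CPM + 1). The range of Lama5 on this log2 scale was 4.67 (F = 17.6, adjusted p = 1.41e-07). Lamb2 had the lower p (F = 31.9, adjusted p = 1.32e-09) and a range of 3.88, just under the limit. Lamc1 (adjusted p = 1.98e-07, range 1.32) and Lama1 (adjusted p = 8.29e-05, range 1.87) had narrower ranges on this scale. Lamb3 had an adjusted p of 0.00124, and Lamb1 and Lama3 had adjusted p of 0.2 and 0.208. The added 1 CPM narrows the range of low genes. With a pseudocount of 0.1 the ranges of Lamb2 and Lama1 were 4.28 and 4.65, and both were called. All-gene calls were then 402 in place of 126.

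Across the 12 groups, the genes closest in pattern were found by the root mean square (RMS) difference of centred group means among 10635 genes with a mean of at least 10 CPM. For Lama5 they were Anxa3 (0.324), Atg9b (0.326) and Nceh1 (0.394), followed by Lamb2 (0.397). For Lamb2 they were Abcc4 (0.233), Nceh1 (0.261) and Gm17590 (0.280), with Lama5 at rank 20. For Lamb3 they were Rin2 (0.134), Hivep1 (0.135) and Cep120 (0.142), and for Lamc1 Hspa4l (0.132), Dcbld2 (0.137) and Pkp4 (0.139). Lama5 and Lamb2 shared Nceh1 as a near neighbour.

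Laminins act with other basement membrane proteins and are bound by integrins and dystroglycan, and 23 such partner genes were followed beside them. From E16.5 to E18.5, 4 of 19 tested partners rose and 8 fell (30.3% and 19.4% of all genes), with a median of -0.46. The largest changes were falls in Col4a1 (-3.89 ± 0.38) and Col4a2 (-3.53 ± 0.43), which encode the main chains of collagen IV, in Nid1, which links laminin to collagen IV (-3.68 ± 0.33), and in Npnt (-2.56 ± 0.27). The partners that rose were the laminin receptor genes Itga3 (1.96), Itgb4 (1.74), Itga6 (1.10) and Dag1 (0.59).

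From E18.5 to the adult, 2 of 20 rose and 6 fell, beside 9.36% and 9.65% of all genes. Col15a1 (3.76 ± 1.12) and Ntn4, a netrin that binds laminin (2.38 ± 0.17), rose, and Col4a1 (-2.58 ± 0.25) and Nid1 (-2.29 ± 0.24) fell again. Between ileum and duodenum none of 17 was higher in ileum and 4 were lower (4.64% of all genes were), namely Col15a1 (-3.20), Npnt (-1.86), Col4a3 (-1.22) and Agrn (-1.21), whereas the 2 laminin genes called there were higher. No partner was called in limma between KO and HE at E16.5 (0 of 19, beside 0.527% of all 17276 tested genes). None was called between cKO and HE either (0 of 20, beside 0.0504% of all 19848 tested genes). An unadjusted p under 0.05 with a fold over 1.5 was found for 7 partners at E16.5, beside 1688 of all genes. Between cKO and HE the same limit was met by 1 partner, beside 617 of all genes.

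In organoids, a dose of 100 ng/ml raised 6 of 20 tested partners with Rspo1, 6 with Rspo2 and 5 with Rspo3 in WT, and lowered 3, 2 and 3. Of all genes 40.9%, 24.3% and 37.8% rose and 12.5%, 9.12% and 13.7% fell in these comparisons, the shares the partner counts are to be read against. In KO it raised 6, 0 and 7 and lowered 3, 0 and 3. Of all genes 21.9%, 0.115% and 32.7% were raised there and 7.86%, 0% and 11.8% lowered. With Rspo1 in WT the partners raised included Npnt (2.39 ± 0.41), Bcam, a receptor for the alpha 5 chain (1.92 ± 0.52), and Col4a1 (1.39 ± 0.56). With Rspo3 in WT Itga7 (-1.27 ± 0.27) and Ntn4 (-1.14 ± 0.28) fell.

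Between genotypes, the partners that differed in the organoids were higher in KO. Of 20 tested, they were 2 with Rspo2 at 100 ng/ml, 4 with Rspo2 at 5 ng/ml and 3 with Rspo3 at 100 ng/ml. Of all genes 0.763%, 3.18% and 0.711% were called higher in these comparisons. Col4a1 (2.56, 2.88 and 3.04) and Col4a2 (2.81, 2.93 and 2.99) were among the higher partners in each of the 3 comparisons. Sex and genotype cannot be told apart in these cultures. At 5 ng/ml, Rspo2 against Rspo1 raised 2 of 20 partners and lowered 3 in WT, and raised 5 and lowered 1 in KO. Of all genes 16.4% were called higher and 6.35% lower in WT, and 13.6% and 4.36% in KO. Bcam was among the partners raised in both (1.47 ± 0.52 in WT and 1.97 ± 0.63 in KO).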

How the data were processed

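RNA from 15 libraries of sorted cells and 30 of organoids was deposited as CPM, which the authors made with Trimmomatic 0.36, STAR 2.5.3a and HTSeq 0.9.1 on GRCm38 with Ensembl release 90, and which were rounded up in steps of 0.05. Group and replicate came from the deposited labels. The members and the gene lists were chosen with earlier results of these data known. Genes that reached 1 CPM in 2 or more libraries were tested on log2(CPM + 1) with limma 3.58.1 (lmFit and eBayes with a trend, R 4.3.3), with Benjamini-Hochberg adjustment over all tested genes. In sorted cells only the groups compared entered a fit. In organoids 12 groups shared 1 fit. Fold changes on this scale understate those of low genes. Dividing by the steps gave back whole reads, on which edgeR 4.0.16 was run as an alternative for sorted cells. Exon lengths and positions were from GENCODE M21, which held 52489 of the 52636 gene IDs.

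Statistics are printed for each laminin gene called and for those not called with a log2 change of at least 1, for up to 4 called partner genes per comparison, and for the 3 genes closest in pattern. Litter (E16.5), mouse (duodenum and ileum) and culture (organoids) pair the libraries by their labels. Deviations from group means of the same litter correlated at -0.0372, those of the same mouse at 0.344, and those of the same culture at 0.124 to 0.883. The block was a term in the sorted-cell fits and a random effect (correlation 0.336) in organoids. Where nothing says that libraries came from separate animals, p-values measure the spread between these libraries. Depth was estimated from the CPM steps, and floors of 3 reads cover counting error only. The alternatives were TMM scaling, a pseudocount of 0.1, no filter, a mean of at least 10 CPM, the blocks, edgeR, 1 fit of all sorted cells, other adult groupings, other Cre genotypes, and leaving out each library or culture. The procedure was tested on simulated data. Values of 1 partner gene are not reported here.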

Additional observations from a re-analysis of the deposited data

Results flagged for a closer look

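Lama4 in the 4 adult Lgr5-DTReGFP libraries was at 0 CPM in the duodenum of both mice, at 3.9 CPM in the ileum of mouse 71 and at 30 CPM in the ileum of mouse 77. The highest library stood apart, since its gap to the next took 0.87 of the whole range, above Dixon's 95% critical value for 4 samples. The 4 libraries mix 2 regions, and for a single gene chance alone sets a library apart in about 1 of 20 groups. The ratio was taken for each laminin gene with a nonzero value there, and only Lama4 passed. Over several genes chance gives a flag more often.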

How the results depend on the processing

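Of 53 printed changes, 37 of them called, 544 values under alternatives were computed: 482 stayed on their side of the threshold, 38 lost a call, 24 gained one and 0 changed direction. The number of laminin genes called between E16.5 KO and HE (0 of 9) was 3 with the replicate block and 1 with edgeR. For E18.5 against E16.5 (6) it was 4 with every gene tested and 4 at a mean of at least 10 CPM. For the adult against E18.5 (4) it was 2 at a mean of at least 10 CPM, 3 with edgeR and 5 with duodenum alone, ileum alone or the mean of each mouse. For ileum against duodenum (2) it was 0 with every gene tested and 0 at a mean of at least 10 CPM, and 3 with the mouse as a block. For cKO against HE (0) it was 1 with every gene tested and 1 with the published genotypes. With the culture as a block the ligand comparisons gave 9 in place of 4, the interactions 1 in place of 0, the dose comparisons 22 in place of 18 and the genotype comparisons 4 in place of 3. A pseudocount of 0.1 gave 3 variable genes (Lama5, Lamb2 and Lama1) in place of 1. Leaving out 1 library or culture gave 0 to 3 (E16.5 KO), 6 to 6 (E18.5), 2 to 4 (adult), 0 to 2 (ileum), 0 to 1 (cKO), 15 to 20 (dose), 0 to 7 (organoid KO), 3 to 6 (ligand), 0 to 1 (interaction) and 1 to 2 (variable genes). The cause of these changes was not tested, apart from Lama4 and Lama1 passing under a filter. The Cre libraries and the E18.5 and E16.5 libraries share only a number, and with it as a block their laminin counts were 0 and 6, as without it (same-number correlations of 0.236 to 0.497 and of -0.0513). Counts over all genes moved by over 1.5 times at E16.5 (91 by the limma fit, 243 with TMM, 2 with a pseudocount of 0.1, 0 with every gene, 196 at 10 CPM, 830 with the litter block, 350 with edgeR, 1073 in 1 fit of all sorted cells), for E18.5 against E16.5 at 10 CPM (9138 and 5212), for the adult at 10 CPM (3717 and 2275), for ileum (1280, 223 with every gene, 709 at 10 CPM, 2065 with the block), for cKO (10, 18 with every gene, 16 with a block, 3 in 1 fit, 779 with the published genotypes), and in organoids for dose at 10 CPM (40681 and 26641), for genotype at 10 CPM (1365 and 836), for ligand with the block (14068 and 25990), for the interaction (84, 47 with TMM, 35 with a pseudocount of 0.1, 35 at 10 CPM, 739 with the block) and for variable genes with a pseudocount of 0.1 (126 and 402). Without 1 library or culture, all-gene counts spanned 53 to 1075 (E16.5 KO, lowest without KO pool 1 and highest without HE pool 2), 5383 to 9570 (E18.5, lowest without embryo 1), 927 to 4172 (adult, lowest without E18.5 embryo 2), 656 to 1084 (ileum, lowest without the duodenum of mouse 77), 6 to 22 (cKO, lowest without HE replicate 1 and highest without cKO replicate 2), 7609 to 12287 (ligand, lowest without WT10), 322 to 2781 (organoid genotype, lowest without WT30 and highest without KO2), 7 to 477 (interaction, lowest without WT30 and highest without KO7) and 108 to 190 (variable genes, highest without KO2). Unadjusted for length, the mean share of Lamb1 at E16.5 was 72.6%, of Lamb2 at E18.5 45.3% and of Lamb3 in duodenum 74.5%. At the depth of the E16.5 pools, levels under 1 CPM rest on 1 or 2 reads.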
